A study of Mus musculus with 15 samples.

Results

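The 36 genes described here carry out or control the use of fatty acids by skeletal muscle, and were measured by RNA sequencing in the quadriceps of 10-month-old C57BL/6 mouse offspring. They were chosen by symbol, as fatty acid uptake, lipolysis, carnitine shuttle and β-oxidation genes, and each matched 1 of the 50686 genes of the deposited table through its Ensembl identifier. All 36 had a mean of at least 10 normalized counts and were therefore among the 13499 genes tested. The offspring came from 5 groups with 3 libraries each. M-HF-Ex offspring had dams fed a 60% high-fat diet for 6 weeks before mating, which then ran on open wheels during pregnancy. M-HF-Sed offspring had dams fed in the same way, whose wheels were locked. P-HF-Ex offspring had sires fed the 60% high-fat diet for 6 weeks and lean dams with open wheels in pregnancy. P-HF-Sed offspring had such sires and lean dams with locked wheels. NC-Sed offspring had chow-fed parents and a dam with a locked wheel, and were used here as the controls of both parental arms. The maternal and paternal arms were separate studies with few parents, and each study had its own chow-fed parents. The labels used here do not say which study an NC-Sed library came from. A difference between the studies could therefore be part of a difference from NC-Sed, and this was not tested. The dieted parents were 8 weeks old when their diet began, and their mates were 14 weeks old. From the day after birth every group had normal chow and no wheel running, so diet and exercise differed only in the parents. The labels used here tie no library to a dam, sire, litter or sex, and p-values here compare differences with the scatter of libraries that may share a litter.

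Muscle takes up fatty acids freed from lipoproteins by lipoprotein lipase or from its own lipid droplets, binds them to coenzyme A, and moves them into mitochondria as carnitine esters. There each turn of the β-oxidation spiral cuts off an acetyl-CoA and passes electrons to flavoproteins. Slow oxidative fibres depend on this pathway more than fast glycolytic fibres do, and the nuclear receptors PPARα and PPARδ drive many of its genes during fasting and endurance exercise.

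The libraries held 18457663 to 26981745 reads assigned to genes, and 17581 to 20771 genes had a read in a library. Muscle markers were high throughout, with a sum for 8 markers of 74949 to 108808 CPM (reads scaled to a common library total), and the 6 cardiac markers summed to 2.95 to 15.6 CPM. Of these, Nppa, Nppb, Tnni3 and Ryr2 had 0 to 17.8 normalized counts, whereas Tnnt2 had 54.5 to 172 and Myh6 9.08 to 217. Liver transcripts were high in 4 libraries: the summed hepatocyte markers reached 3357 CPM in M-HF-Sed 2, 386 CPM in M-HF-Sed 3, 199.6 CPM in P-HF-Sed 1 and 142 CPM in NC-Sed 2, and 9.12 to 28.3 CPM in the others. M-HF-Sed 3 and NC-Sed 2 also had the fewest detected genes, 17581 and 17699. P-HF-Ex 1 and NC-Sed 1 held little slow-fibre RNA: the slow myosin gene Myh7 had 3842 and 8832 normalized counts in them and 14133 to 41403 in the other 13 libraries. In whole muscle, fewer cells of a type and less RNA per cell cannot be told apart. All levels below are the depositors' normalized counts, which are read counts divided by a size factor for each library, and log2 differences are between group means of log2(normalized count + 1). Where a gene is said to have a higher or lower mean in a group, the means of these log2 values are meant.

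Promoter sequence could be read for 30 of the 36 genes from RefSeq (GRCm38.p6). Of these, 4 are given here because they belong to the genes the results turn on, or hold the letters searched for: Acot2 differed most from the controls, Pdk4 was the most abundant per length, Fabp3 followed Myh7 most closely, and the Acadm window holds the short nuclear receptor site AAGGTCA. Each runs 5′ to 3′ on the strand of the gene and stops before the annotated transcript, and capitals mark a match to AAGGTCA on either strand. The stretches printed are 250 bases long for Acot2 and Acadm, 219 for Pdk4 and 107 for Fabp3. They are shorter than the windows searched, which also run past the start. Acot2 lies at chr12:83987611-83987860 on the plus strand, Pdk4 at chr6:5496310-5496528 on the minus strand, Fabp3 at chr4:130308488-130308594 on the plus strand and Acadm at chr3:153944644-153944893 on the minus strand.
Acot2: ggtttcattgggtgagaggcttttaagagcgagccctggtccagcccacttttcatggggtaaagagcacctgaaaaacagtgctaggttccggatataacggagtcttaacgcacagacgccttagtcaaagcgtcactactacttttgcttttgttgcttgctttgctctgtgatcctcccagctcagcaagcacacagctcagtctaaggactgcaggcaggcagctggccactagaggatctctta
Pdk4: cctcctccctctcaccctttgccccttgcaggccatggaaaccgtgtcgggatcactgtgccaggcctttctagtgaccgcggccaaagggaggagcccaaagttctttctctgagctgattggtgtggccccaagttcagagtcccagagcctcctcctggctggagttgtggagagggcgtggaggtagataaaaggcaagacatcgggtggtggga
Fabp3: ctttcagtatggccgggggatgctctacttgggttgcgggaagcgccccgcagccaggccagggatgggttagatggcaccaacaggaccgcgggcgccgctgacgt
Acadm: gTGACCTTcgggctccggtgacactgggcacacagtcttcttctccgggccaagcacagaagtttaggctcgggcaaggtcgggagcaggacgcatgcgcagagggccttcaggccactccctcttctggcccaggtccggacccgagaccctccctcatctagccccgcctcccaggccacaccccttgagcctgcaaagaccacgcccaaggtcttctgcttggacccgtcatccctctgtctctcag
The direct repeat of AGGTCA with 1 spacer base, the form that PPARs bind, was found on either strand in 0 of 35 windows of these genes and in 0.0396% of 32851 mouse promoter windows, each of which runs from 250 bases before to 50 bases after a start. The same repeat of the relaxed unit AGGNCA was in 0 of 35 and in 0.381% of all windows, and the extended site TCAAGGTCA in 0 of 35 and 0.423%. AAGGTCA, which lies within the extended site, was in 2 of 35, those of Acadm and Acacb, against 4.72% of all windows. The match in Acadm starts at position -249 from the transcription start, and the one in Acacb at position 44. For the sites found in 0.0396% to 0.423% of all windows, 0 of 35 cannot show whether these genes differ from others. Nothing is concluded from those zeros. No binding was measured, and sites outside these windows were not searched.

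Per kilobase of annotated exon, the highest genes lay outside the spiral. The lengths used are those of the annotated exons, 823 bases for Fabp3 and 8730 for Hadha, so this order depends on the annotation. Pdk4, the kinase that shuts off pyruvate oxidation and so favours fat, averaged 24221 normalized counts per kb over the 15 libraries. Fabp3, the cytosolic fatty acid carrier of muscle and heart, followed with 5618, Pnpla2, the first lipase of the droplet, with 5115, and Ucp3, a mitochondrial inner membrane carrier, with 3253. By this measure the highest spiral genes were the thiolase gene Acaa2 with 2716 and the long-chain dehydrogenase gene Acadl with 2705. At the low end stood Cpt1b, the muscle gene for the carnitine acyltransferase of the outer membrane, with 90.1, the receptor gene Ppara with 79.2 and the fatty acid transport protein gene Slc27a4 with 71.5. The Cpt1b exons share 81.4% of their bases with an overlapping annotated gene on the same strand, and those of Etfb share 53% with another, so reads there could have been left uncounted and both levels are uncertain. On the other strand, 42.9% of the Acadvl exon bases overlap Dvl2, which had 158 to 309 normalized counts against 3392 to 5318 for Acadvl. All 36 genes together made up 1.23% ± 0.22 of normalized counts in M-HF-Ex, 1.06% ± 0.0746 in M-HF-Sed, 1.13% ± 0.245 in P-HF-Ex, 1.17% ± 0.216 in P-HF-Sed and 0.938% ± 0.153 in NC-Sed (SD, n = 3 each). These ranges overlapped: the lowest library was NC-Sed 1 with 0.799% and the next P-HF-Ex 1 with 0.867%, the libraries with the lowest Myh7. Without Pdk4 the other 35 genes made up 0.774% ± 0.144 in M-HF-Ex, 0.730% ± 0.0424 in M-HF-Sed, 0.696% ± 0.147 in P-HF-Ex, 0.794% ± 0.102 in P-HF-Sed and 0.637% ± 0.122 in NC-Sed.

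**Figure D1:**
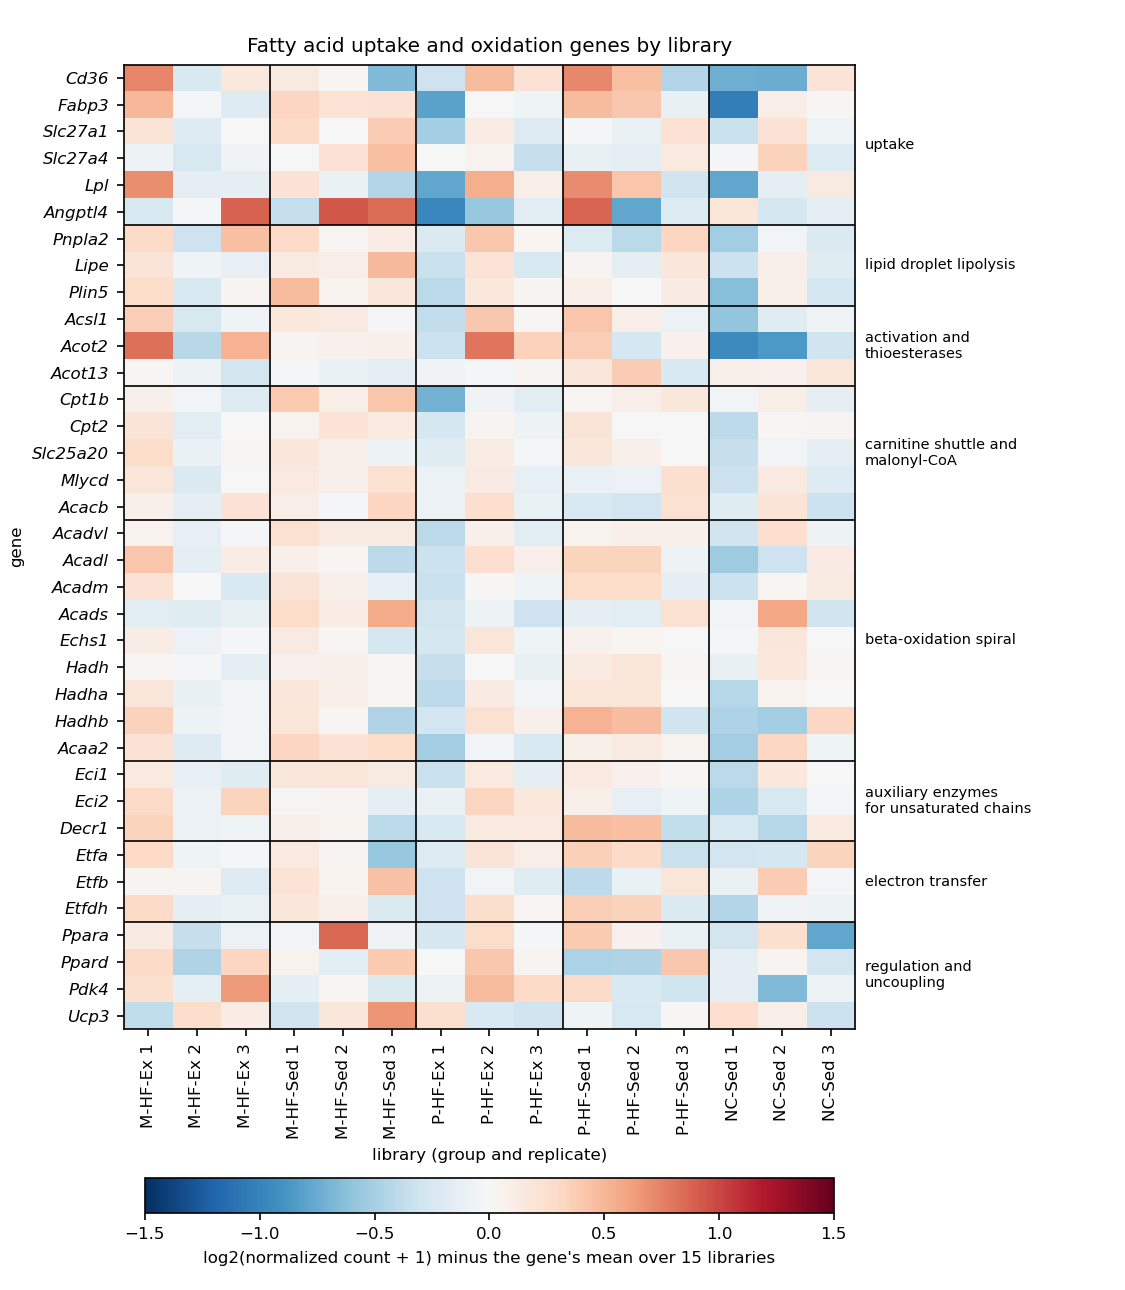
Level of each of the 36 genes (rows, by pathway step) in each of the 15 libraries (columns, by group), as log2(normalized count + 1) minus the gene's mean over all libraries. NC-Sed 1 and P-HF-Ex 1 are pale to dark blue through most steps, and M-HF-Sed 3 and NC-Sed 2 share a pattern of their own, with Acads and Etfb red and Cd36 and Hadhb blue.

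Between its lowest and highest library, a gene spanned under 2-fold in 24 of 36 cases and more in 12. Echs1, the hydratase of the spiral, spanned 1.36-fold, the least, Hadh, its 3-hydroxyacyl-CoA dehydrogenase, 1.44-fold, and Mlycd, which breaks down the inhibitor malonyl-CoA, 1.48-fold. The transport protein gene Slc27a1 spanned 1.85-fold, and the electron transfer genes Etfa and Etfdh 1.89-fold and 1.75-fold. The widest were Angptl4, the secreted inhibitor of lipoprotein lipase, with 3.78-fold, the mitochondrial thioesterase gene Acot2 with 3.44-fold and Ppara with 3.11-fold, followed by Fabp3 with 2.90-fold, Lpl with 2.80-fold, Cd36 with 2.78-fold and Pdk4 with 2.47-fold. Ppara reached 534 normalized counts in M-HF-Sed 2, the library with the most liver RNA, and 172 to 388 in the others; liver expresses Ppara strongly, and the part of the liver RNA in that value was not tested. Angptl4 was high in 4 libraries: M-HF-Ex 3 with 1164, M-HF-Sed 2 with 1206, M-HF-Sed 3 with 1129 and P-HF-Sed 1 with 1153. In the other 11 it had at most 716, and 3 of those 4 high libraries held liver transcripts. NC-Sed 1 was the lowest library for 13 of the 36 genes, against 5.1% of all genes tested, and P-HF-Ex 1 for 9, against 7.06%. In the 2 libraries with few detected genes, 21 members were higher and 15 lower than in the mean of the other 13. Acads, Etfb and Slc27a4 lay above all 13 others in both, by 0.66, 0.48 and 0.46 on the log2 scale, and Decr1 lay below all 13 in both (-0.48). The share of all genes outside the others in both was not counted, and extreme values were common in these libraries. M-HF-Sed 3 was the highest library for 14.5% and the lowest for 16.8% of all genes tested. NC-Sed 2 was the highest for 13.5% and the lowest for 16.9%.

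The first comparison asks whether a high-fat diet of the dam, without exercise, leaves a mark on the pathway in adult offspring. M-HF-Sed muscle had higher means than NC-Sed muscle for 33 of the 36 genes, against 53% of all genes tested, with a median log2 difference of 0.22, against 0.01 for all genes. No single gene passed: limma called 0 of 36 members and 0 of 13499 genes (0%) at an adjusted p under 0.05, and 3 members were higher at an unadjusted p under 0.05, against 2.64% of all genes, and 0 lower, against 1.4%. In 6 genes the 3 M-HF-Sed libraries all lay above the 3 NC-Sed libraries, against 4.44% of all genes, and in 1 all lay below, against 3.58%. All 3 lipid droplet genes were higher, with a median of 0.39, the highest of the steps. All 6 uptake genes were higher (median 0.27), as were 2 of 3 activation and thioesterase genes (0.36), all 5 of the carnitine shuttle and malonyl-CoA step (0.24), 8 of 9 of the spiral (0.15), all 3 auxiliary enzymes for unsaturated chains (0.21), 2 of 3 electron transfer genes (0.15) and all 4 of regulation and uncoupling (0.20).

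Plin5, which holds lipid droplets against mitochondria and restrains their lipases, had 2612, 1944 and 2104 normalized counts in M-HF-Sed, against 1204, 1997 and 1560 in NC-Sed. The groups overlapped through M-HF-Sed 2 and NC-Sed 2, and the low value of NC-Sed 1 widened the gap. The log2 difference was 0.50 ± 0.19 (SE; limma unadjusted p = 0.0184, adjusted p = 0.99955). Lipe, the hormone-sensitive lipase, had 1236, 1201 and 1573 counts in M-HF-Sed, against 894, 1180 and 989 in NC-Sed. Here the groups did not overlap, but NC-Sed 2 and M-HF-Sed 2 nearly met (log2 difference 0.39 ± 0.16, limma unadjusted p = 0.0301, adjusted p = 0.99955). Pnpla2 had 18408, 15308 and 16336 counts in M-HF-Sed, against 10575, 14725 and 13053 in NC-Sed, also without overlap (0.39 ± 0.22). Lipe and Pnpla2 are strong in adipocytes too. All 7 adipocyte markers tested were lower in M-HF-Sed than in NC-Sed (median -0.55), with summed adipocyte markers of 33.7, 51.6 and 100.1 CPM in M-HF-Sed and 78.8, 130.5 and 51.9 CPM in NC-Sed; their part in these values was not tested.

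Acot2, the thioesterase that frees long-chain fatty acids from coenzyme A inside mitochondria, had 2505, 2539 and 2576 normalized counts in M-HF-Sed, against 1259, 1340 and 1974 in NC-Sed. All 3 M-HF-Sed libraries were close together and above every control (log2 difference 0.77 ± 0.30, limma unadjusted p = 0.0230, adjusted p = 0.99955). Acot13, a smaller thioesterase, went the other way without overlap, with 995, 948 and 925 counts in M-HF-Sed against 1069, 1065 and 1151 in NC-Sed (-0.20 ± 0.13). Fabp3 (0.56 ± 0.28), the acyl-CoA synthetase gene Acsl1 (0.36 ± 0.20) and Cpt2 (0.24 ± 0.13), which re-forms acyl-CoA inside the mitochondrion, were the remaining members without overlap, all higher. Cpt1b had 392, 317 and 399 counts in M-HF-Sed against 291, 318 and 271 in NC-Sed, so that only M-HF-Sed 2 met the controls (0.33 ± 0.16, limma unadjusted p = 0.0617, adjusted p = 0.99955). Acaa2 differed by 0.36 ± 0.18 and Mlycd by 0.28 ± 0.14. Acot2 has a near-identical neighbour, Acot1, and the handling of shared reads in counting is not stated; Acot1 had 244, 394 and 271 counts in M-HF-Sed and 78.2, 157 and 236 in NC-Sed. The median of the 36 genes was 0.14, with 29 higher, without NC-Sed 1, and 0.38, with 32 higher, without the 4 libraries with liver RNA. That last setting leaves M-HF-Sed 1 as the only library of its group, set against NC-Sed 1 and NC-Sed 3. All 8 slow fibre markers had higher means in M-HF-Sed than in NC-Sed (median 0.56), and with Myh7 as a covariate the median of the 36 genes was 0.16 with 28 higher.

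**Figure D2:**
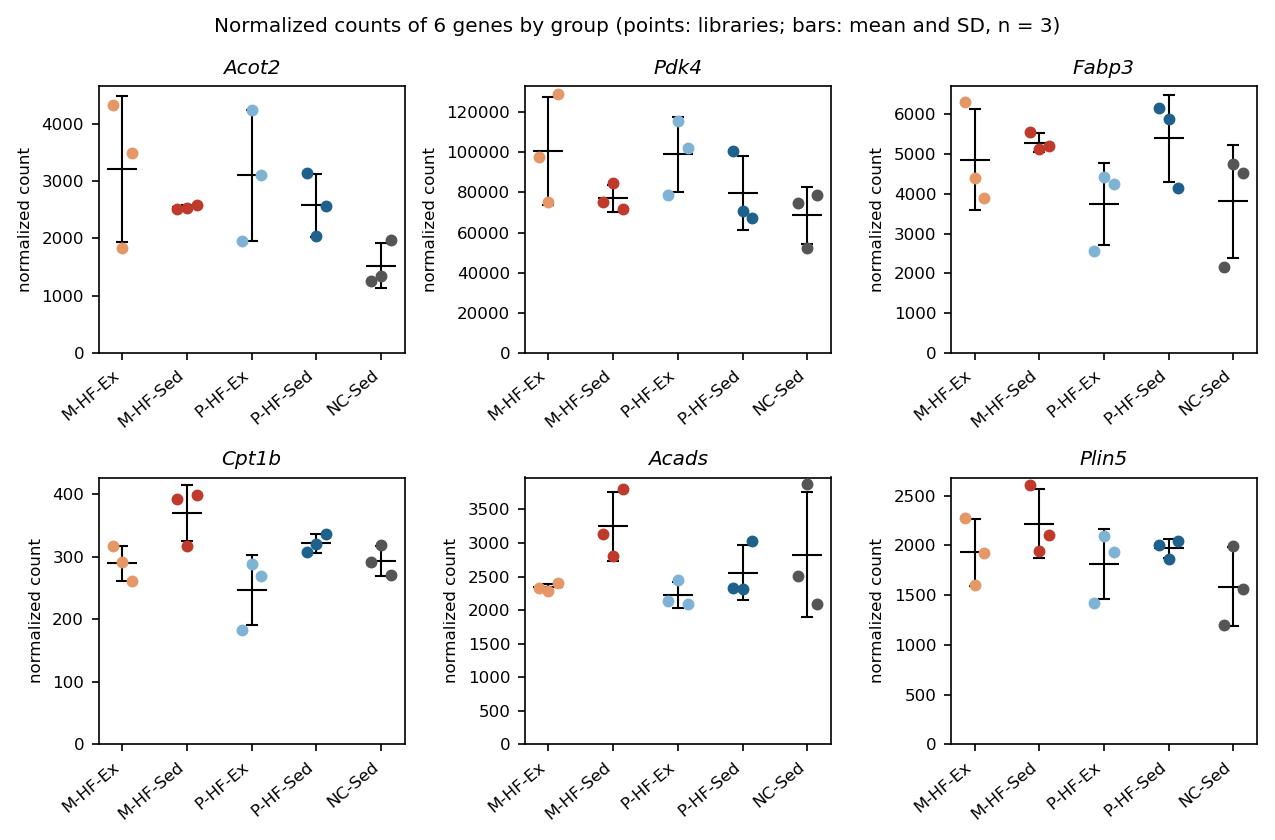
Normalized counts of 6 genes in the 5 groups, with 1 point per library and bars for the mean and SD (n = 3). Acot2 is lowest in NC-Sed in mean, and the P-HF-Ex library 1 and NC-Sed library 1 are the lowest points for Fabp3.

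Running by the high-fat-fed dams was compared next. M-HF-Ex offspring had higher means than M-HF-Sed offspring for 13 of 36 genes, against 50.4% of all genes tested, with a median log2 difference of -0.09. limma called 0 of 36 members and 0 of 13499 genes (0%), and 2 members were lower at an unadjusted p under 0.05, against 5.33% of all genes, and 0 higher, against 4.21%. In 7 members all M-HF-Ex libraries lay below all M-HF-Sed libraries, against 8.61% of all genes, and in 0 above, against 8.56%. The 7 came from several steps: Slc27a4, Cpt1b, Acadvl, Acads, Hadh, Acaa2 and Etfb.

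Acads, the short-chain dehydrogenase of the spiral, had 2327, 2289 and 2400 normalized counts in M-HF-Ex, against 3131, 2805 and 3800 in M-HF-Sed. The M-HF-Ex libraries were tightly grouped, and the highest M-HF-Sed value was that of M-HF-Sed 3, 1 of the 2 libraries with few detected genes. The log2 difference was -0.46 ± 0.19 (limma unadjusted p = 0.0253, adjusted p = 0.516) and -0.34 without both of those libraries. Cpt1b had 317, 291 and 260 counts in M-HF-Ex, against 392, 317 and 399 in M-HF-Sed, where the nearest libraries were M-HF-Ex 1 and M-HF-Sed 2, less than 1 count apart (-0.35 ± 0.16, limma unadjusted p = 0.0491, adjusted p = 0.516). Slc27a4 differed by -0.34 ± 0.17 and by -0.23 without the few-gene libraries, and Etfb, a subunit of the electron transfer flavoprotein, by -0.27 ± 0.16 and -0.17. Acaa2 differed by -0.28 ± 0.18.

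Pdk4 pointed the other way, with 97595, 75395 and 129235 counts in M-HF-Ex against 75412, 84613 and 71568 in M-HF-Sed. M-HF-Ex 2 lay among the M-HF-Sed libraries and the other 2 above them (0.35 ± 0.22, limma unadjusted p = 0.137, adjusted p = 0.554). The sign of the median was not stable: it was -0.15 without M-HF-Ex 1, -0.04 without M-HF-Ex 2, 0.02 with libraries scaled to equal totals and 0.03 with the hepatocyte marker level as a covariate. All 8 slow fibre markers had lower means in M-HF-Ex than in M-HF-Sed (median -0.38), and with Myh7 as a covariate the median of the 36 genes was -0.02 with 18 higher.

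Set against the controls, M-HF-Ex muscle had higher means for 28 of 36 genes, against 52.5% of all genes, with a median of 0.15. limma called 0 of 36 members and 0 of 13499 genes (0%), and 3 members were higher at an unadjusted p under 0.05, against 4.91% of all genes, and 0 lower, against 3.85%. The groups did not overlap in 1 member, Acot13, which was lower, against 4.72% of all genes, and in 0 that were higher, against 5.54%. Acot2 had 4329, 1825 and 3499 normalized counts in M-HF-Ex, against 1259, 1340 and 1974 in NC-Sed. M-HF-Ex 2 fell below NC-Sed 3, and the other 2 were above all controls (log2 difference 1.02 ± 0.30, limma unadjusted p = 0.00427, adjusted p = 0.566). Eci2, an enoyl-CoA isomerase that readies unsaturated chains, had 1671, 1293 and 1728 counts in M-HF-Ex, against 992, 1157 and 1350 in NC-Sed (0.42 ± 0.15, limma unadjusted p = 0.0113, adjusted p = 0.566). M-HF-Ex 2 again lay within the controls. Pdk4 differed by 0.54 ± 0.22 (limma unadjusted p = 0.0291, adjusted p = 0.566), with 74843, 52392 and 78716 counts in NC-Sed, its lowest library being NC-Sed 2. Slc25a20, the carnitine-acylcarnitine carrier (0.24 ± 0.12), Cd36, the membrane fatty acid receptor (0.65 ± 0.34), and Acadl (0.37 ± 0.20) came next. The median was 0.06 without M-HF-Ex 1, 0.23 without M-HF-Ex 2, 0.07 without NC-Sed 1 and 0.23 without NC-Sed 2. The slow fibre markers had higher means of log2 values in M-HF-Ex than in NC-Sed in 8 of 8 cases (median 0.19). The groups overlapped widely for Myh7, with 30503, 26484 and 14133 normalized counts in M-HF-Ex against 8832, 30628 and 38166 in NC-Sed. With Myh7 as a covariate the median of the 36 genes was 0.15, and 7 members had an unadjusted p under 0.05, as did 1203 of 13499 genes.

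In the paternal arm, offspring of high-fat-fed sires and sedentary dams were compared with the same NC-Sed controls, so the values of both arms share those 3 libraries. P-HF-Sed means were higher for 30 of 36 genes, against 51% of all genes, with a median of 0.17. limma called 0 of 36 members and 0 of 13499 genes (0%), and 3 members were higher at an unadjusted p under 0.05, against 1.46% of all genes, and 0 lower, against 1.41%. The groups did not overlap in 2 members, both higher, against 2.64% of all genes, and in 0 that were lower, against 3.05%. The uptake step had 5 of 6 genes higher (median 0.32), the activation and thioesterase step 3 of 3 (0.42), the carnitine step 5 of 5 (0.14) and the spiral 7 of 9 (0.18), whereas regulation and uncoupling had 2 of 4 (0.08).

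Cd36 had 8692, 7232 and 3914 normalized counts in P-HF-Sed, against 3173, 3156 and 6052 in NC-Sed, with wide overlap (0.67 ± 0.34). Fabp3 had 6167, 5891 and 4140 counts in P-HF-Sed against 2170, 4754 and 4518 in NC-Sed (0.56 ± 0.28). P-HF-Sed 3 lay among the controls for both genes. Acot2 had 3142, 2037 and 2558 counts in P-HF-Sed, all above the NC-Sed values given above (0.77 ± 0.30, limma unadjusted p = 0.0231, adjusted p = 0.9197). Slc25a20 had 2499, 2337 and 2232 counts in P-HF-Sed against 1747, 2150.4 and 2013 in NC-Sed, without overlap (0.26 ± 0.12, limma unadjusted p = 0.04996, adjusted p = 0.9197). Acadl had 6726, 6694 and 5071 counts in P-HF-Sed against 3673, 4307 and 5783 in NC-Sed, and overlapped through P-HF-Sed 3 and NC-Sed 3 (0.44 ± 0.20, limma unadjusted p = 0.0467, adjusted p = 0.9197). Acsl1 differed by 0.42 ± 0.20. Without NC-Sed 1 the median of the 36 genes was 0.07, with 25 higher. All 8 slow fibre markers were higher in P-HF-Sed than in NC-Sed (median 0.51) and none of the 7 adipocyte markers was (median -1.01); their part in these values was not tested beyond the Myh7 covariate, with which the median of the 36 genes was 0.11.

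The same question was asked for running by lean dams mated to high-fat-fed sires. P-HF-Ex means were higher than P-HF-Sed means for 6 of 36 genes, against 51.8% of all genes, with a median log2 difference of -0.14. limma called 0 of 36 members and 0 of 13499 genes (0%), and 2 members were lower at an unadjusted p under 0.05, against 1.93% of all genes, and 0 higher, against 1.84%. In 3 members all P-HF-Ex libraries lay below all P-HF-Sed libraries, against 5.5% of all genes, and in 0 above, against 5.11%. All 6 uptake genes (median -0.28), all 9 of the spiral (-0.23) and all 3 electron transfer genes (-0.07) were lower in P-HF-Ex. The 6 genes with higher means came from the other steps: Pnpla2, Acot2, Acacb, Eci2, Ppard and Pdk4.

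Cpt1b had 183, 287 and 268 normalized counts in P-HF-Ex, against 307, 320 and 337 in P-HF-Sed. The groups did not overlap, and P-HF-Ex 1 lay far below the rest (log2 difference -0.41 ± 0.16, limma unadjusted p = 0.0241, adjusted p = 0.991). Hadh had 2889, 3674 and 3395 counts in P-HF-Ex against 4007, 4150 and 3742 in P-HF-Sed, without overlap (-0.26 ± 0.11, limma unadjusted p = 0.0268, adjusted p = 0.991). Acaa2 had 2816, 3948 and 3453 counts in P-HF-Ex against 4298, 4445 and 4209 in P-HF-Sed, also without overlap (-0.36 ± 0.18). P-HF-Ex 1 was the lowest library of each of these genes. Fabp3 had 2555, 4438 and 4254 counts in P-HF-Ex against 6167, 5891 and 4140 in P-HF-Sed (-0.55 ± 0.28). The very-long-chain and medium-chain dehydrogenase genes Acadvl (-0.23 ± 0.14) and Acadm (-0.26 ± 0.16) followed. Without P-HF-Ex 1 the differences were -0.21 for Cpt1b, -0.17 for Hadh, -0.23 for Acaa2 and -0.29 for Fabp3, and the median of the 36 genes was -0.04 with 13 higher. All 8 slow fibre markers were lower in P-HF-Ex than in P-HF-Sed (median -1.14), and with Myh7 as a covariate the median of the 36 genes was 0.01 with 20 higher. The median was -0.26 without P-HF-Ex 2 and -0.22 without P-HF-Sed 3.

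Against the controls, P-HF-Ex muscle had higher means for 22 of 36 genes, against 49.9% of all genes, with a median of 0.06. limma called 0 of 36 members and 0 of 13499 genes (0%), and 3 members were higher at an unadjusted p under 0.05, against 8.09% of all genes, and 0 lower, against 5.62%. The groups did not overlap in 1 member that was higher, Pdk4, against 11.7% of all genes, and in 1 that was lower, Acot13, against 8.7%. Acot2 had 1956, 4247 and 3108 normalized counts in P-HF-Ex, and P-HF-Ex 1 was just below NC-Sed 3 at 1974 (log2 difference 0.98 ± 0.30, limma unadjusted p = 0.00534, adjusted p = 0.284). Eci2 had 1274, 1715 and 1531 counts in P-HF-Ex against 992, 1157 and 1350.2 in NC-Sed (0.37 ± 0.15, limma unadjusted p = 0.0233, adjusted p = 0.321). Pdk4 had 78934, 115642 and 102407 counts in P-HF-Ex against 74843, 52392 and 78716 in NC-Sed; the nearest libraries, P-HF-Ex 1 and NC-Sed 3, were nearly equal (0.53 ± 0.22, limma unadjusted p = 0.0313, adjusted p = 0.332). Cpt1b (-0.27 ± 0.16), Cd36 (0.56 ± 0.34) and Etfb (-0.27 ± 0.16) came next. The median was 0.18 without P-HF-Ex 1, -0.05 without P-HF-Ex 2, -0.02 without NC-Sed 1 and 0.10 without NC-Sed 2, so its sign rested on single libraries. Slow fibre markers had lower means in P-HF-Ex than in NC-Sed, 8 of 8 (median -0.49). With Myh7 as a covariate the median of the 36 genes was 0.14, and 9 members had an unadjusted p under 0.05, as did 2061 of 13499 genes.

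**Figure D3:**
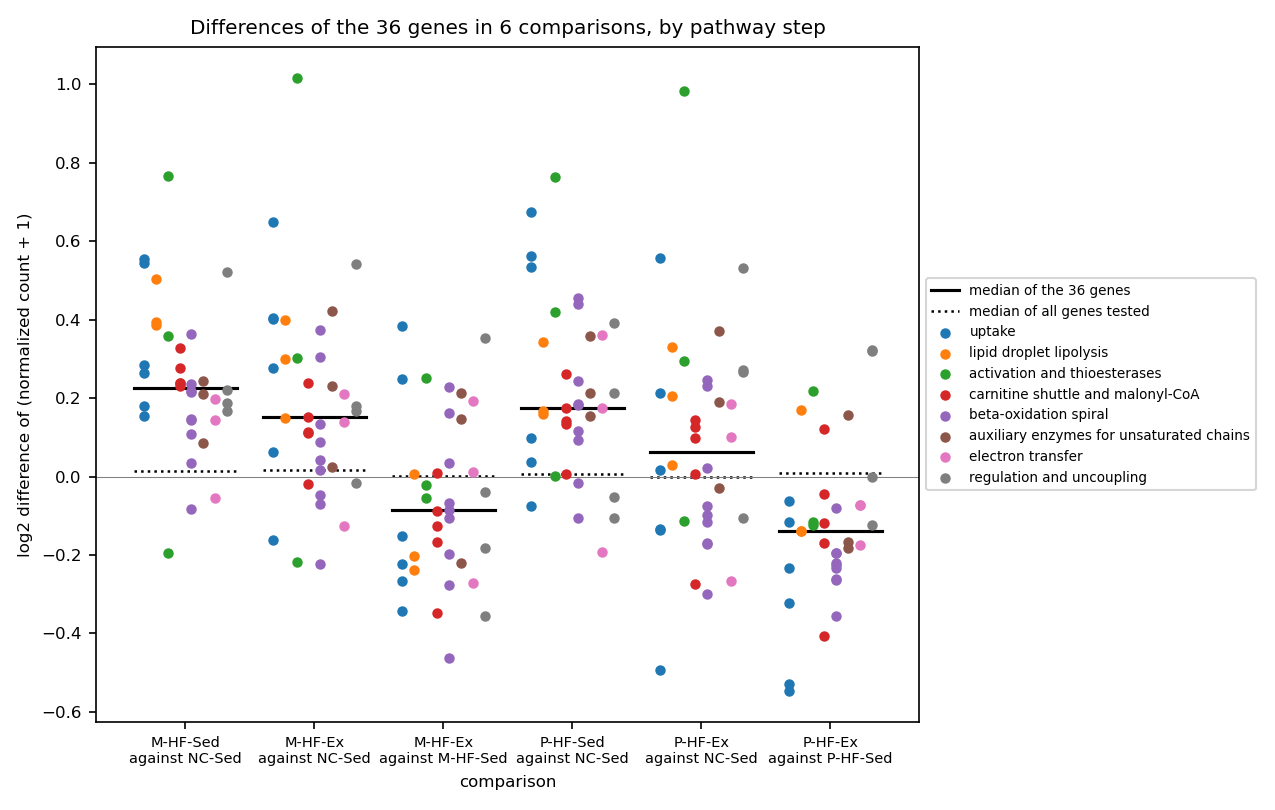
Log2 difference of each of the 36 genes (points, coloured by pathway step) in 6 comparisons, with the median of the 36 genes (solid line) and of all genes tested (dotted line). Acot2, the green point at the top, reaches 1.02 in M-HF-Ex and 0.98 in P-HF-Ex against NC-Sed, and the solid line lies above 0 in the 4 comparisons with NC-Sed and below it in both comparisons of running with sedentary dams.

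The maternal and paternal arms were separate studies. An effect of the study on the running difference could therefore not be told from one of the arm. Whether dam running acted differently in the 2 arms was tested as the maternal minus the paternal running difference. It was above 0 for 24 of 36 genes, against 49.6% of all genes, with a median of 0.06. limma called 0 of 36 members and 0 of 13499 genes (0%), and 0 members had an unadjusted p under 0.05, against 1.05% of all genes higher and 0.748% lower. The smallest unadjusted p was that of Acadl (0.42 ± 0.29, limma unadjusted p = 0.163, adjusted p = 0.99949), and Slc27a4 (-0.28 ± 0.24), Lpl (0.57 ± 0.49), Hadhb (0.39 ± 0.36), Ppard (-0.36 ± 0.34) and Cd36 (0.50 ± 0.48) followed, with standard errors about as large as the differences. The median was -0.05 without P-HF-Ex 1, -0.002 without M-HF-Ex 1, 0.02 without P-HF-Sed 1, 0.15 without M-HF-Ex 2 and 0.17 without P-HF-Ex 2. For slow fibre markers the difference was above 0 in 8 of 8 (median 0.68), and with Myh7 as a covariate the median of the 36 genes was -0.03 with 16 above 0. In a test for any difference among the 5 groups, limma called 0 of 36 members and 0 of 13499 genes (0%), and 2 members had an unadjusted p under 0.05, against 6.71% of all genes. They were Acot2 (unadjusted p = 0.0271, adjusted p = 0.715) and Cpt1b (unadjusted p = 0.0274, adjusted p = 0.715), followed by Acaa2, Acads, Eci2 and Pdk4. Count tests called no member in any of these comparisons either: edgeR's quasi-likelihood test and voom called 0 genes, and DESeq2 called 18 genes for M-HF-Sed against NC-Sed, 60 for M-HF-Ex against M-HF-Sed, 67 for P-HF-Ex against NC-Sed, 1 for P-HF-Ex against P-HF-Sed and 186 among the 5 groups.

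The level of each gene was next set against slow-fibre RNA from library to library. Within groups, the slope of each gene's log2 level on the log2 level of Myh7, which marks slow fibres, was positive for 32 of 36 members, against 50.9% of the 13498 genes tested (Myh7 itself left out). limma called 2 members with a positive slope, against 0.296% of genes, and 0 with a negative slope, against 0.0148%. At an unadjusted p under 0.05, 22 members had a positive slope, against 3.62% of genes, and 1 a negative slope, against 2.91%. The median slope was 0.13 per doubling of Myh7, against 0.00202 for all genes. By step, 8 of the 9 spiral genes had a positive slope at that p, as did 4 of 6 uptake genes, 1 of 3 lipid droplet genes, 2 of 3 activation and thioesterase genes, 3 of 5 carnitine genes, 2 of 3 auxiliary enzymes, 2 of 3 electron transfer genes and 0 of 4 of regulation and uncoupling.

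Fabp3 rose with Myh7 by 0.39 ± 0.06 per doubling (SE; limma adjusted p = 0.0141). It had 2555 normalized counts in P-HF-Ex 1 and 2170.3 in NC-Sed 1, the libraries with the lowest Myh7, and 3892 to 6301 in the other 13, so those 2 stood below all others. Lpl, the lipoprotein lipase gene, rose by 0.46 ± 0.09 (limma adjusted p = 0.0436), with 7851 counts in P-HF-Ex 1 and 7863 in NC-Sed 1 against 9942 to 21976 in the other 13. Hadha, a subunit of the trifunctional protein, had 8062 and 7840.04 counts in these 2 libraries and 9770.4 to 12002 in the others, with a slope of 0.18 ± 0.04 that did not pass (limma adjusted p = 0.116). Acsl1 had a slope of 0.24 ± 0.06, Acadm of 0.19 ± 0.05 and Eci1 of 0.17 ± 0.04, none of which passed. Ucp3 was the 1 member with a negative slope at an unadjusted p under 0.05 (-0.23 ± 0.08, limma unadjusted p = 0.0105, adjusted p = 0.527), with 11824 counts in P-HF-Ex 1 and 11910.4 in NC-Sed 1, inside the range of 7658 to 15853 of the others. Acads (0.00228 ± 0.08), the malonyl-CoA-forming carboxylase gene Acacb (0.00666 ± 0.07) and Ppard (-0.02 ± 0.11) had slopes near 0.

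**Figure D4:**
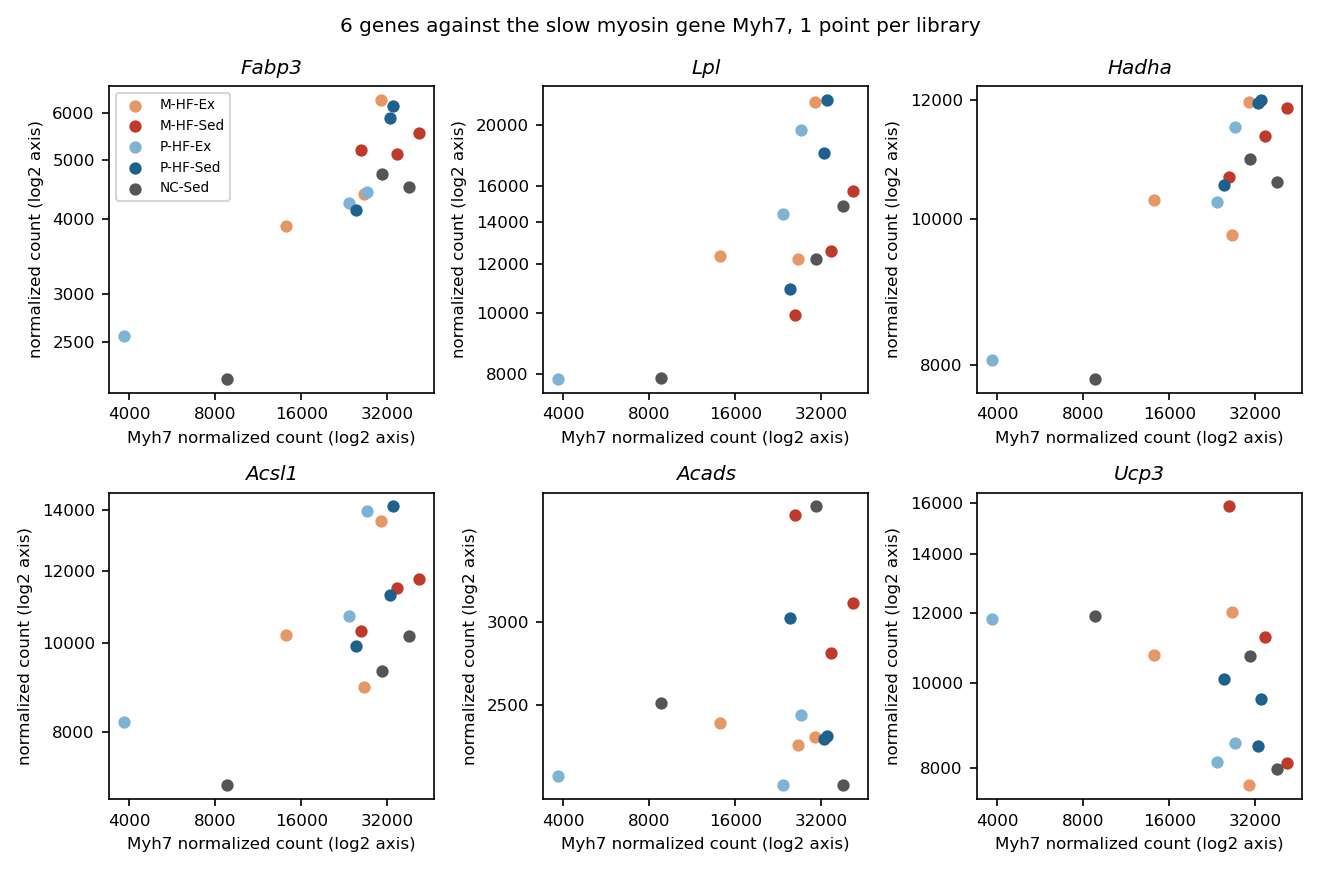
Normalized counts of 6 genes against those of the slow myosin gene Myh7, both on log2 axes, 1 point per library in the colour of its group. For Fabp3, Lpl, Hadha and Acsl1 the lowest points are those of P-HF-Ex 1 and NC-Sed 1, at 3842 and 8832 counts of Myh7, and for Acads and Ucp3 they are not.

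Both calls rested on few libraries. Without P-HF-Ex 1 and NC-Sed 1, limma called 0 of 36 members: the slope of Fabp3 was 0.46 (adjusted p = 0.256), that of Lpl 0.82 (adjusted p = 0.216), and the median slope 0.06, with 24 positive and 9 at an unadjusted p under 0.05 against 9.2% of genes. Without NC-Sed 1 alone limma called 0 members (adjusted p = 0.228 for both genes). Without P-HF-Ex 1 alone it called 1, Fabp3 (adjusted p = 0.0475), while Lpl had an adjusted p of 0.321. Lpl also missed the threshold without P-HF-Ex 2 (adjusted p = 0.188), NC-Sed 3 (0.121), NC-Sed 2 (0.0565), M-HF-Sed 1 (0.0714), M-HF-Sed 2 (0.0636), M-HF-Sed 3 (0.0776), M-HF-Ex 1 (0.0569), M-HF-Ex 3 (0.0863) or P-HF-Sed 2 (0.0797), and Fabp3 passed in each of these. With 7 other slow fibre markers in place of Myh7, both passed (adjusted p = 0.00802 for Fabp3 and 0.0158 for Lpl). P-HF-Ex 1 and NC-Sed 1 also had the lowest summed endothelial markers, 293.4 and 298.0 CPM, against 327.6 to 451.5 CPM in the other libraries. The part of endothelial RNA in these slopes was not tested.

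**Figure D5:**
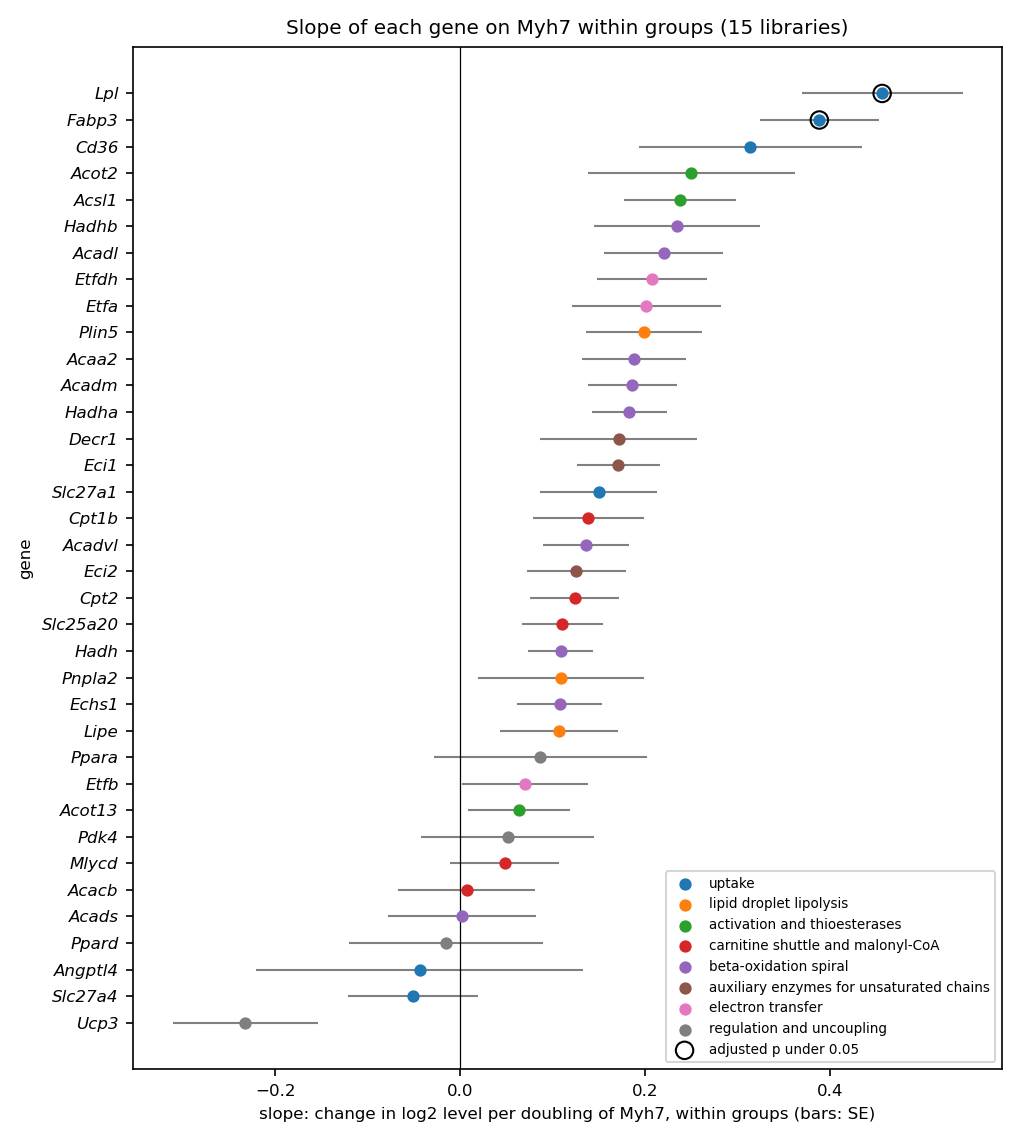
Slope of each of the 36 genes on Myh7 within groups (horizontal axis, change in log2 level per doubling of Myh7; bars are the SE), coloured by pathway step and ordered by slope. Lpl at 0.46 and Fabp3 at 0.39, ringed, pass the threshold over all genes, and Ucp3 stands alone at -0.23.

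The wider pathway was covered by 84 further genes of fatty acid handling, of which 83 were tested. limma called 0 of the 83 in each comparison of groups and 0 for the slope on Myh7. Their medians were nearer 0 than those of the 36 genes against the controls: 0.10 for M-HF-Sed, -0.02 for M-HF-Ex, 0.02 for P-HF-Sed and -0.05 for P-HF-Ex, with 56, 38, 48 and 35 of 83 higher. Lpin1, a phosphatidate phosphatase and coactivator of PPARα, had 17992, 15793 and 25576 normalized counts in M-HF-Ex, 17025, 19196 and 22007 in M-HF-Sed, 19569, 23493 and 18463 in P-HF-Ex and 15564, 13438 and 18893 in P-HF-Sed. In NC-Sed it had 13663, 12869 and 13688, below every library of the high-fat groups except P-HF-Sed 2. Its log2 difference from NC-Sed was 0.53 ± 0.17 in M-HF-Ex, 0.53 ± 0.17 in M-HF-Sed, 0.61 ± 0.17 in P-HF-Ex and 0.24 ± 0.17 in P-HF-Sed (limma unadjusted p = 0.00784, 0.00832, 0.00325 and 0.189), with adjusted p-values of 0.566, 0.99955, 0.284 and 0.9197. Echdc2, which belongs to the enoyl-CoA hydratase family, had 250.4, 261 and 258 counts in M-HF-Ex and 339, 437 and 485 in M-HF-Sed, without overlap. Its difference of -0.70 ± 0.15 had the second smallest unadjusted p of all 13499 genes in that comparison (0.000247), with a limma adjusted p of 0.516. It passed in that comparison without M-HF-Sed 1 (-0.84, limma adjusted p = 0.0422) and with DESeq2 (-0.72, adjusted p = 0.0272). Without M-HF-Sed 1, both M-HF-Sed libraries left held liver RNA, and the part of that RNA in the difference was not tested. Bdh1, the mitochondrial ketone body dehydrogenase, had the smallest p for a slope on Myh7 among these genes, 0.50 ± 0.10 (limma adjusted p = 0.0525).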

How the data were processed

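Quadriceps RNA of 15 offspring, 3 in each of 5 groups, was sequenced as 100-bp single reads from ribosomal RNA-depleted stranded libraries, per the labels' protocols. Reads were aligned to mm10 and counted per gene with STAR 2.5.2b, featureCounts 1.5.2 and DESeq2 1.11.8, per the submitters' processing notes; the strand and multiple-mapping settings of counting are not stated. The deposited values are size-factor-normalized counts (treated as a signal, since they are no longer whole); every value was a whole multiple of its library's step within 0.001 read, so reads were recovered for 15 libraries (100% whole) and used in count tests as alternatives.

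Gene symbols and exon lengths came from GENCODE M21 (50376 of 50686 identifiers matched). The main test was limma 3.58.1 (R 4.3.3; eBayes with trend) on log2(normalized count + 1) in 1 fit of all 15 libraries, for the 13499 genes with a mean of at least 10 (37187 were not tested), with Benjamini-Hochberg adjustment over all genes within a comparison and a threshold of 0.05. The slope on Myh7 came from a fit with a mean per group and the centred log2 Myh7 level. The fit was checked on simulated data for M-HF-Sed against NC-Sed and for the slope. For M-HF-Sed against NC-Sed it recovered 51% of 2-fold and 93% of 4-fold changes, and called 10 unchanged genes. For the slope it recovered 67% of slopes of 0.5 and 94% of slopes of 1, and called 9 unchanged genes. Many 2-fold changes would thus be missed. An alternative let libraries that share the first part of the title code, whose meaning the labels do not give, be correlated. Alternatives used edgeR 4.0.16 and DESeq2 1.42.0, other scalings, pseudocounts and filters, covariates and left-out libraries. In each comparison the text names every member that passed and the 6 members with the smallest unadjusted p, and 3 further pathway genes. The 36 genes, the lists and the tests were chosen with earlier results of these data known. No pair of libraries within a group agreed within counting error (chi-square divided by its degrees of freedom between 17.98 and 87.29), so each was counted as its own sample. Replicate numbers follow the order of deposit.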

Additional observations from a re-analysis of the deposited data

How the results depend on the processing

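Recomputed under each alternative, 617 summary values and 2015 values of named genes were counted as unchanged. That count includes small medians that changed sign. The median for P-HF-Ex against NC-Sed, for example, ran from -0.05 to 0.18 with 1 library left out. Among the named genes, 26 values lost and 27 gained a call. In the comparisons of groups no alternative called a member, and the gained calls were of 2 further genes, Echdc2 for M-HF-Ex against M-HF-Sed (DESeq2, and limma without M-HF-Sed 1) and both Echdc2 and Pnpla3 among the 5 groups (DESeq2 adjusted p = 0.000989 and 0.0294). DESeq2 called 18, 60, 67 and 1 genes for M-HF-Sed against NC-Sed, M-HF-Ex against M-HF-Sed, P-HF-Ex against NC-Sed and P-HF-Ex against P-HF-Sed, and 186 among the 5 groups, and the hepatocyte marker covariate gave 1 for M-HF-Sed against NC-Sed, where 0 were called; the cause was not tested. Leaving out 1 library at a time gave 0 to 1 genes for M-HF-Sed against NC-Sed, 0 to 109 for M-HF-Ex against M-HF-Sed (109 without M-HF-Sed 1), 0 to 1 for P-HF-Ex against NC-Sed and 0 to 1 for P-HF-Ex against P-HF-Sed. Without M-HF-Sed 1, both M-HF-Sed libraries left held liver RNA. The median maternal minus paternal difference was 0.25 with equal totals, against 0.06, and without the 4 libraries with liver RNA that of Hadhb was -0.025 and that of Cd36 -0.0386, both turned in sign. Leaving out those 4 keeps only M-HF-Sed 1 in its group, so these values rest on that library.

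The slope on Myh7 called 42 genes, and 92 with equal totals, 94 with DESeq2, 22 with voom, 24 without the liver-RNA libraries, 88 with no group means and 12 to 43 with 1 library left out. It called 2 members, and 9 with equal totals, 6 with DESeq2, 5 with no group means, 1 with a pseudocount of 8, no filter, edgeR, voom, without the few-gene libraries, with the hepatocyte marker covariate or the title code correlation, 0 with no trend, without the liver-RNA libraries or without the 2 libraries with the lowest Myh7 (an alternative chosen after seeing the data), and 0 to 2 with 1 library left out. No paired analysis was possible because the labels give no replicate numbers. The first part of the title code recurs across groups. All M-HF-Sed libraries, however, carry the same first part, and no NC-Sed library carries it. M-HF-Ex and P-HF-Sed share no first part with NC-Sed either, and P-HF-Ex is the only high-fat group that does. A difference tied to the code could therefore not be told from the group difference for M-HF-Sed, M-HF-Ex or P-HF-Sed against NC-Sed. With libraries that share the first part correlated (consensus correlation 0.108), no member was called in a comparison of groups. None was called in the main fit either, so nothing is concluded about the code from those comparisons. Standard errors of single members against NC-Sed were 0.11 to 0.41 on the log2 scale, and a difference as large as 1.02 ± 0.30 (Acot2) did not pass.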

Other observations

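Of the further pathway genes, those with the smallest p-values in each comparison are given here, and none passed with limma on all libraries. Pnpla3, a lipase-family gene of the lipid droplet, had 140, 63.6 and 69.6 normalized counts in P-HF-Ex and 78.4, 71.9 and 95.5 in P-HF-Sed, against 253, 172 and 118 in NC-Sed. P-HF-Sed lay wholly below the controls and P-HF-Ex overlapped them through its first library (log2 difference -1.01 ± 0.31 for P-HF-Ex and -1.08 ± 0.31 for P-HF-Sed, limma adjusted p = 0.284 and 0.9197). Nrip1, a corepressor of oxidative genes, had 925, 1109.5 and 677 counts in P-HF-Ex and 846, 751 and 823 in P-HF-Sed, against 632, 532 and 489 in NC-Sed, without overlap in either comparison (0.69 ± 0.23 and 0.56 ± 0.23, limma adjusted p = 0.285 and 0.9197). Ppargc1b, a coactivator of oxidative genes, differed by -0.66 ± 0.22 for M-HF-Ex against NC-Sed and by -0.48 ± 0.22 for P-HF-Ex against P-HF-Sed. Vldlr, a receptor for triglyceride-rich lipoproteins, differed by 0.63 ± 0.17 for M-HF-Ex against M-HF-Sed and 0.45 ± 0.17 for M-HF-Ex against NC-Sed. Sirt3, the mitochondrial deacetylase, differed by -0.44 ± 0.14 for M-HF-Ex against M-HF-Sed.

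Nudt19 differed by -0.33 ± 0.11 for M-HF-Sed against NC-Sed, the synthetase gene Acsl4 by 0.45 ± 0.23 for P-HF-Sed against NC-Sed, and the transcription factor gene Foxo1 by 0.95 ± 0.46 for P-HF-Ex against P-HF-Sed. The maternal minus paternal running difference was -0.53 ± 0.21 for Echdc2, 0.63 ± 0.26 for the adipocyte fatty acid binding protein gene Fabp4 and 1.12 ± 0.52 for Fabp5. The slope on Myh7 was 0.36 ± 0.08 for Dgat2, which makes triglyceride, and -0.38 ± 0.09 for Pnpla3. Of the 12 peroxisomal oxidation genes, 11 were higher in M-HF-Sed than in NC-Sed (median 0.23) and 11 were lower in M-HF-Ex than in M-HF-Sed (median -0.22), comparisons that share the M-HF-Sed libraries, 2 of which held liver RNA.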
